A study of Mus musculus with 12 samples.

Results

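En1, En2, Otx2 and Tlx1 are 4 homeobox genes among the 12393 mouse genes that the array measured with a probe set of a single gene. En2, Otx2 and Tlx1 were picked because their signal in these same arrays was high in labelled cells of the head and low in those of the trunk, and En1, the paralogue of En2, belongs to the same set. Each of the 4 genes has 1 probe set. En2, Otx2 and Tlx1 are among the 7721 genes whose signal was high enough to be tested, with at least 2 of the 12 arrays above that array's median probe set, and En1 is not.

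All 4 genes encode homeodomain transcription factors, which bind DNA and set regional identity in the embryo. Otx2 is required for the forebrain and midbrain and, together with Gbx2, positions the boundary between midbrain and hindbrain. The engrailed genes En1 and En2 are expressed across that boundary. En1 also marks the central dermomyotome, the somite epithelium that gives rise to trunk muscle, and En2 is known from muscle precursors of the first pharyngeal arch. Tlx1 is required for the spleen and is expressed in pharyngeal arches and cranial ganglia.

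The cells came from ICR mouse embryos that carried Myf5Cre together with RosaYFP, in which a cell that has expressed the muscle determination gene Myf5 stays fluorescent along with its descendants, whether or not Myf5 is still on. YFP+ cells of head and trunk were sorted at 3 stages, embryonic day 9.5 (E9.5), 10.5 (E10.5) and 11.5 (E11.5), for 6 groups of 2 arrays. All 6 groups share this strain and genotype, all RNA was amplified before hybridisation, and unlabelled cells were not analysed here. Whether arrays of the same group came from separate embryos, litters or pools is not stated in the labels. A p-value here therefore reflects no more than the spread between these samples, which may be technical.

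The labelled cell type was checked against 7 myogenic genes. Myf5 lay above the array median on all 12 arrays, whereas Myf6 lay below it on both arrays of every group. In head at E9.5, 6 of the 7 genes (Myod1, Myog, Myf6, Des, Cdh15 and Chrna1) lay below the median on both arrays. The 2 arrays of a group correlated with r of 0.948 to 0.965 across probe sets. The gap between them depended on the signal: its median was 0.76 to 0.91 log2 units among the 25% of probe sets with the lowest signal and 0.13 to 0.21 among the 25% with the highest. The replicate 1 arrays of both regions at E10.5 stood apart in Xist, the RNA of the inactive X chromosome, with log2 signals of 7.35 and 6.37 against 11.89 to 13.10 on the other 10 arrays.

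En2 was above the array median on all 6 head arrays and below it on all 6 trunk arrays. The gene lies on chromosome 5 at 28165696 to 28172190 (GRCm38.p6). Its log2 signal in head was 7.62 and 8.22 at E9.5, 7.41 and 8.10 at E10.5, and 7.22 and 7.67 at E11.5. In trunk it was 4.74 and 4.34, then 4.20 and 4.24, then 4.45 and 3.09. Every head array thus exceeded every trunk array by more than 2 units, and the 3 head stages overlapped each other. The pattern of all head arrays above and all trunk arrays below the median was met by 15 of the 7721 genes (0.194%), and the reverse pattern by 14 (0.181%). These shares and the head against trunk values of En2 are given without a test, because the gene was chosen on them.

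The head minus trunk difference in En2 log2 signal was 3.37 at E9.5, 3.53 at E10.5 and 3.68 at E11.5. A log2 difference against a signal below the array median is not a measured fold, so folds are given as bounds, with each array below its median raised to it. On that floor En2 was at least 2.21-fold higher in head at E9.5, at least 1.96-fold at E10.5 and at least 1.59-fold at E11.5. Its mean over the 3 stages was 7.70 in head and 4.18 in trunk, a difference of 3.53 taken against trunk signals that all lay below the median.

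En2 passed no test between stages. In head its E9.5 to E11.5 log2 change was −0.47 ± 0.53 (SE), with a 95% interval of −1.62 to 0.68 (limma, adjusted p = 0.723), a 1.39-fold higher level at E9.5. From E9.5 to E10.5 the change was −0.16 (interval −1.32 to 0.99, adjusted p = 0.919) and from E10.5 to E11.5 it was −0.31 (interval −1.46 to 0.84, adjusted p = 0.81, both limma). In trunk it was −0.77 (interval −1.93 to 0.38, adjusted p = 0.391, limma). Head minus trunk of that same change was 0.30 ± 0.75 (interval −1.33 to 1.93, adjusted p = 0.936, limma). The head interval thus leaves room for a fall of more than 1 log2 unit as well as for a small rise.

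**Figure D1:**
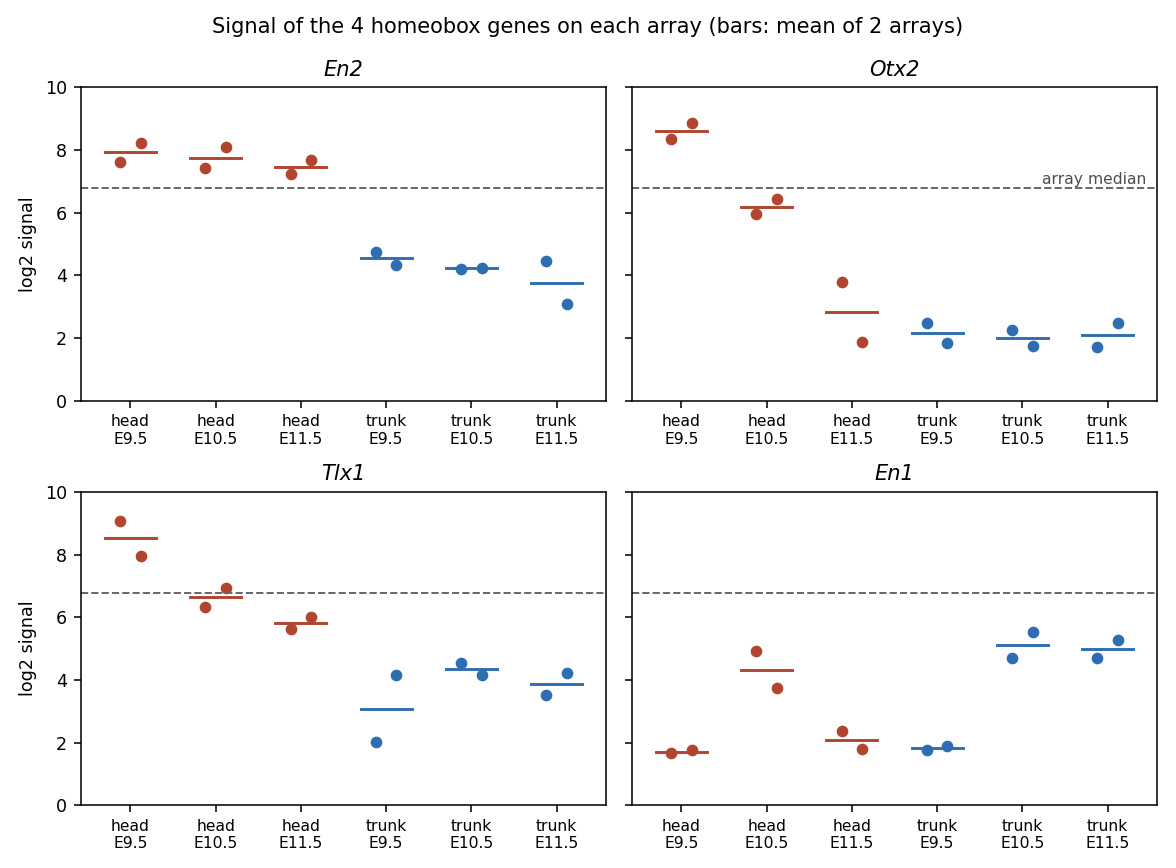
Log2 MAS5 signal (vertical axis) of En2, Otx2, Tlx1 and En1 on each of the 12 arrays, by region and stage. Points are single arrays, bars the mean of the 2 arrays of a group, and the dashed line the array median. En2 stays above the line in head from 7.22 to 8.22, Otx2 and Tlx1 step down from E9.5, and En1 stays below the line on every array.

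Otx2 was above the array median only on the 2 head arrays of E9.5. Its log2 signal in head was 8.34 and 8.87 at E9.5, 5.94 and 6.44 at E10.5, and 3.79 and 1.86 at E11.5. In linear signal these are 324 and 468, then 61.4 and 86.7, then 13.8 and 3.62. The 3 head stages did not overlap, but the share of all genes of which this holds was not counted, so nothing is read from it. In trunk Otx2 lay between 1.71 and 2.49 on all 6 arrays, a range that includes one of the head arrays of E11.5 (1.86). The group means thus ran from 8.60 to 6.19 to 2.82 in head, and the step from head at E11.5 to trunk at E9.5 (0.66) was within the pooled spread of the arrays (SD 0.68).

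Otx2 fell in head. From E9.5 to E11.5 its log2 signal changed by −5.78 ± 1.3 (SE), with a 95% interval of −8.54 to −3.02 (limma, adjusted p = 0.0203). Of the 7721 genes 369 (4.78%) passed the test in this comparison, 157 of them lower at E11.5 (2.03%) and the others higher (2.75%). The stage comparison was not used to choose the gene, but its result in these arrays was already known. Otx2 also entered the test only through the head arrays of E9.5, the group in which it is high, so its call is not independent of the filter. With no filter, over 12393 genes, the change was the same and the adjusted p was 0.000723 (limma). With arrays below the median raised to it, Otx2 was at least 3.54-fold higher at E9.5 than at E11.5.

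The call rests on both arrays of each stage. Without head E11.5 replicate 1 the change was −6.75 (adjusted p = 0.0527), and without head E11.5 replicate 2 it was −4.81 (adjusted p = 0.136, both limma). Without either E9.5 head array Otx2 had fewer than 2 arrays above the median and was not tested. Without both E10.5 replicate 1 arrays, which stood apart in Xist, the change was −5.78 (adjusted p = 0.0536, limma).

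The single steps of Otx2 did not pass the test. From E9.5 to E10.5 the log2 change in head was −2.41 (interval −5.17 to 0.34, adjusted p = 0.379), and 74 of all genes (0.958%) were called there, 0.259% as lower. From E10.5 to E11.5 it was −3.37 (interval −6.12 to −0.61, adjusted p = 0.218, both limma), against 76 called genes (0.984%, with 0.453% lower). For the first step the bound was at least 3.54-fold, and no fold is given for the second, since both stages lay below the median. Which of the steps was larger cannot be read from values below the median.

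In trunk Otx2 showed no detectable change, at −0.06 (interval −2.82 to 2.69, adjusted p = 0.983, limma), where 1038 genes (13.4%) were called, 8.73% of all genes as higher and 4.71% as lower. The difference between head and trunk in the change was −5.72 ± 1.8 (interval −9.62 to −1.82). It did not pass the test (limma, adjusted p = 0.166) but did under 4 of 8 other settings, given in the closing section. This difference is made from head minus trunk values on which Otx2 was chosen, so no support is drawn from it. In this comparison 114 genes (1.48%) were called, 1.2% of all genes with a negative value. The head minus trunk difference itself was 6.44 at E9.5, 4.19 at E10.5 and 0.73 at E11.5, values that the choice of the gene used. At E9.5 head was at least 3.56-fold higher than trunk, and at the later stages both regions lay below the median, so that no fold is given.

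The promoter of Otx2 is shown because Otx2 alone among the 3 genes that passed the signal filter was called between stages. The gene lies on the minus strand of chromosome 14 at 48656781 to 48667644 (GRCm38.p6), and the RefSeq table of the same build gives 4 start windows for it. The windows are of 250 bases before the start. The outermost is chr14:48667645-48667894, read 5′ to 3′ on the minus strand, and capitals mark TAATTA, the core that engrailed-type homeodomains bind.
Otx2 outermost window: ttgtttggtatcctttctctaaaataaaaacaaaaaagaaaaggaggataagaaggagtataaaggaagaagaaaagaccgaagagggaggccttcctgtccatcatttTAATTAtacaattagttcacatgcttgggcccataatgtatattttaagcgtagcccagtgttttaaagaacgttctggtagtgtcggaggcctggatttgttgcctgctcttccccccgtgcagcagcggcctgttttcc
The match begins 141 bases before the start. The window chr14:48665110-48665359 holds 3 more matches to TAATTA, and one to TAATCC, the core bound by Otx-type homeodomains, as its reverse complement. They are shown in capitals in the runs of 30 bases at chr14:48665315-48665344 and chr14:48665256-48665285, minus strand.
Otx2 inner window, distal run: gTAATTAagggacgtgtgcccctcGGATTA
Otx2 inner window, proximal run: taTAATTAattctcggacgaggTAATTAtt
TAATTA occurred on either strand in 4.84% of the 32851 RefSeq windows of this length, TAATCC in 6.25%, and the E-box CAGCTG, a sequence bound by myogenic factors, in 13%. The other 2 windows of Otx2 and the windows of En1 and Tlx1 held none of the 3. These matches are a description of the letters, and binding was not measured. En2 was not matched in the table.

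Tlx1 was above the array median on both head arrays of E9.5 and on 1 of 2 at E10.5. The gene lies on chromosome 19 at 45150092 to 45156943 (GRCm38.p6). Its log2 signal in head was 9.08 and 7.96 at E9.5, 6.34 and 6.92 at E10.5, and 5.64 and 6.02 at E11.5. In trunk it was 2.02 and 4.15, then 4.55 and 4.17, then 3.51 and 4.23. No head array overlapped a trunk array, and the 3 head stages did not overlap each other. The share of all genes that do the same was not counted, so nothing is read from this. Trunk at E11.5 overlapped both other trunk stages, and the arrays of trunk at E9.5 differed by 2.1 units, the widest gap of any group for this gene.

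The decline of Tlx1 in head did not pass the test. From E9.5 to E11.5 the log2 change was −2.69 ± 0.75 (SE), with a 95% interval of −4.32 to −1.06 (limma, adjusted p = 0.0633). The step from E9.5 to E10.5 was −1.89 (interval −3.52 to −0.26, adjusted p = 0.254) and the next was −0.80 (interval −2.44 to 0.83, adjusted p = 0.624, both limma). On the median floor the E9.5 arrays were at least 3.18-fold above E10.5 and at least 3.34-fold above E11.5.

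The E9.5 to E11.5 decline of Tlx1 lay close to the threshold, and whether it passed depended on the arrays used. No trunk array enters the log2 value in head, so leaving one out changes only the shared spread and says nothing on that value. Over the arrays left out in turn it ranged from −3.25 to −2.13. Tlx1 also entered the test only through head arrays of E9.5 and E10.5, where it is highest. Its result is thus not independent of the filter.

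In trunk the log2 change of Tlx1 was 0.79 (interval −0.84 to 2.42, adjusted p = 0.565, limma). The difference between head and trunk in the change was −3.48 ± 1.1 (interval −5.79 to −1.17, adjusted p = 0.155, limma). It too is made from values used in choosing the gene, so no support is drawn from it. Head exceeded trunk by 5.44 at E9.5, 2.27 at E10.5 and 1.96 at E11.5, values used in choosing the gene. At E9.5 this was at least 3.36-fold, and no fold is given later, where head was not above the median on both arrays. Over the 3 stages the head minus trunk mean was 3.79 for Otx2 and 3.22 for Tlx1, and 0.61 for each with signals below the median raised to it. In that comparison 808 genes (10.5%) were called, 529 of them higher in head (6.85%) and 279 lower (3.61%), and nothing is read from it for the chosen genes.

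**Figure D2:**
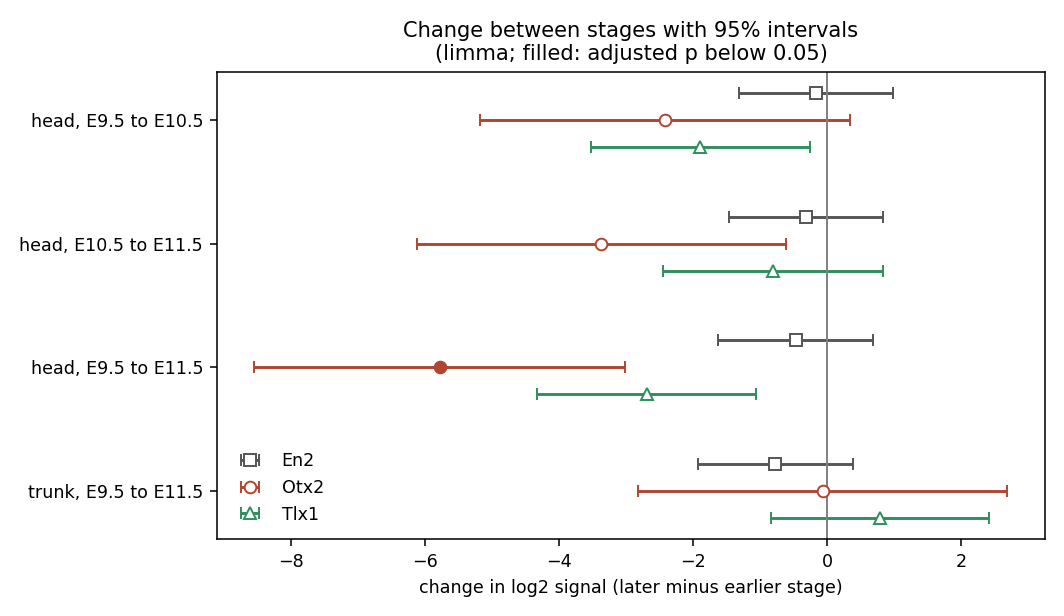
Change in log2 signal between stages (horizontal axis, later minus earlier stage) for En2 (squares), Otx2 (circles) and Tlx1 (triangles), with 95% intervals from limma, for 3 comparisons in head and 1 in trunk. The filled point marks an adjusted p below 0.05. Otx2 from E9.5 to E11.5 in head, at −5.78, is the only filled point, and all trunk intervals include 0.

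En1 stayed below the array median on all 12 arrays. The gene lies on chromosome 1 at 120602487 to 120607991 (GRCm38.p6). Its log2 signal in head was 1.67 and 1.75 at E9.5, 4.91 and 3.75 at E10.5, and 2.38 and 1.78 at E11.5. In trunk it was 1.77 and 1.89, then 4.71 and 5.53, then 4.70 and 5.26. The brightest array was still 1.26 units under its median. Trunk at E9.5 lay below all 4 later trunk arrays, and head at E10.5 lay above the other head arrays. How many of all genes show such an order was not counted. When the filter was dropped and 12393 genes were tested, the change of En1 in trunk from E9.5 to E11.5 was 3.15 ± 0.63 (limma, adjusted p = 0.0094). Both stages lay below the median, so no fold is given. Its change in head was 0.37 (adjusted p = 0.87) and the difference between the regions −2.78 ± 0.89 (adjusted p = 0.248, both limma). The head minus trunk mean over the stages was −1.27 for En1, between signals below the median, where that of En2 was 3.53.

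Across the 12 arrays the log2 signals of Otx2 and Tlx1 correlated with r = 0.86 (Spearman 0.81), En2 and Tlx1 with 0.81 (0.71) and En2 and Otx2 with 0.75 (0.63). Within the 6 head arrays r was 0.84, 0.46 and 0.51 in that order. These values describe the 12 arrays. They share the split into head and trunk on which the genes were chosen, and the 2 arrays of a group are not independent of its stage.

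The genes with the closest profiles were taken as the 5 of highest Pearson r over the 12 arrays. For En2 they were Lmo2 (0.98), Pls1 (0.95), Sel1l3 (0.93), Tmbim1 (0.93) and Dlx2 (0.93). Lmo2, a LIM-only transcriptional adaptor, had group means of 8.86, 8.77 and 8.35 in head and of 7.16, 7.20 and 6.81 in trunk. Within the head arrays r with En2 was 0.62 for Lmo2 and −0.21 for Pls1, an actin-bundling protein, so the likeness to Pls1 lay in the split between the regions.

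For Otx2 the closest genes were Epcam (0.93), Pygl (0.93), Tmem170 (0.92), Kit (0.92) and Enpp3 (0.92). Epcam is an adhesion molecule of epithelia, Pygl the liver form of glycogen phosphorylase and Kit the receptor of stem cell factor. Within the 6 head arrays r with Otx2 was 0.95 for Epcam, 0.97 for Pygl and 0.84 for Kit. Epcam ran from 10.24 to 9.29 to 8.04 in head and from 8.27 to 7.96 to 7.37 in trunk. Unlike Otx2 it was above the median on all 12 arrays.

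For Tlx1 they were Cyp1b1 (0.95), Neurod1 (0.94), Dlx2 (0.93), Kazald1 (0.93) and Irx3 (0.93). Neurod1, a neuronal differentiation factor, had means of 11.31, 9.88 and 9.33 in head and of 6.56, 8.80 and 7.92 in trunk. Cyp1b1, a cytochrome P450 enzyme that can act on retinoids and steroids, had a mean of 10.37 in head at E9.5 and of 7.68 in trunk at that stage. These genes were picked for a profile like that of Tlx1, so no support is drawn from their decline in head. Dlx2, a homeobox gene of arch ectomesenchyme and forebrain, was close to both En2 and Tlx1. When r was taken over the 6 group means, 1 of the 5 genes stayed among the closest for En2, 0 for Otx2 and 2 for Tlx1.

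**Figure D3:**
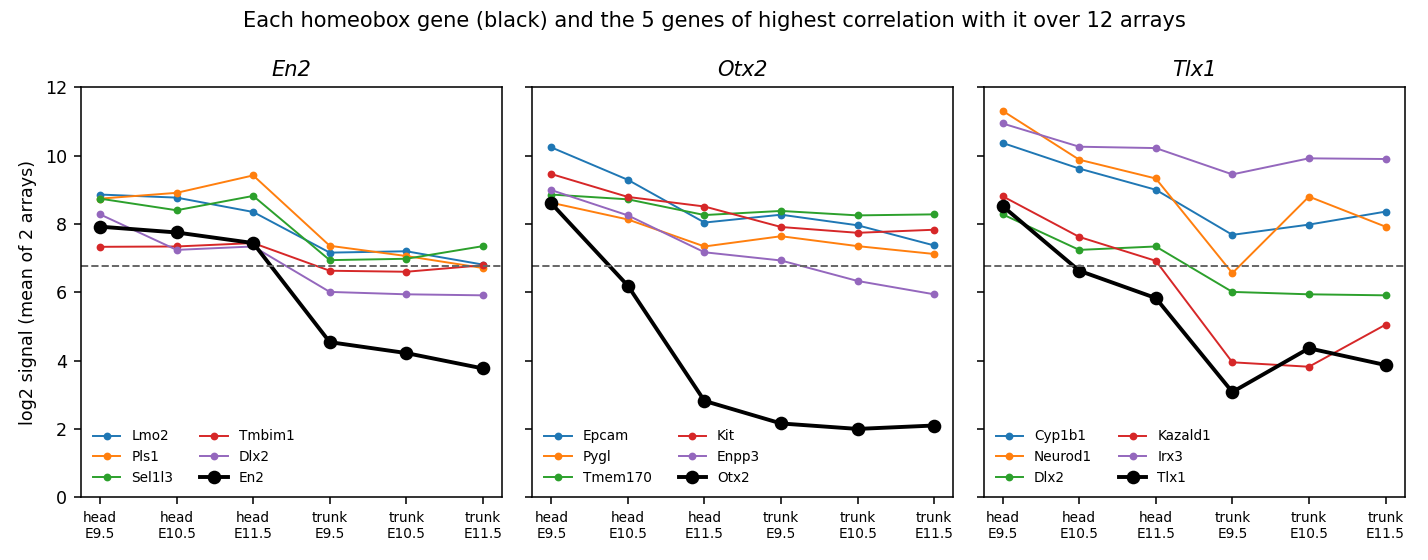
Group mean log2 signal (vertical axis, 2 arrays per group) of En2, Otx2 and Tlx1 in black and of the 5 genes whose profile over the 12 arrays correlated best with each, by region and stage. The dashed line is the array median. The shapes of the lines are to be compared and not their heights, since a probe set's signal has its own scale. Lmo2 is higher in head like En2, but with a smaller head minus trunk mean (1.60 against 3.53). Epcam declines in head from E9.5 to E11.5 like Otx2, but by less (−2.20 against −5.78).

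The other genes of brain regionalisation were mostly dim. For scale, 7721 of the 12393 genes on the array passed the signal filter. The share of all genes below the median on both arrays of a group was not counted. Of 17 genes of midbrain, hindbrain and isthmus patterning on the array, 13 to 15 lay below the median on both arrays of each group, among them Gbx2, Pax5, Pax8, Wnt1, Fgf8 and Lmx1b, which surround Otx2 and the engrailed genes at the midbrain and hindbrain boundary. In head the summed signal of the 17 genes was 1608 to 1658 at E9.5 and 995.1 to 1321 at E11.5. The list had 4 tested genes, of which 0 were higher and 2 lower in head than in trunk (list median −0.31, all genes −0.00). Of all genes 6.85% were called higher and 3.61% lower. The 2 lower genes of the list were Hoxa2 (−1.05 ± 0.20, adjusted p = 0.00469) and Hoxb1 (−1.31 ± 0.25, adjusted p = 0.00468, both limma), which pattern the hindbrain. The other tested genes, Foxa2 and Egr2, differed by 0.43 (adjusted p = 0.38) and 0.51 (adjusted p = 0.106, both limma). In head Hoxb1 fell by 2.12 ± 0.43 from E9.5 to E11.5 (limma, adjusted p = 0.0137), a change between signals below the median that was lost when these were raised to it (adjusted p = 0.999) and without head E9.5 replicate 2 or head E11.5 replicate 2.

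Of 14 forebrain and eye genes on the array, 10 to 12 lay below the median on both arrays of each group, with Six3, Six6, Hesx1, Rax, Lhx5, Nkx2-1, Vax1 and Vax2 there in all 6 groups. Of 5 tested genes, 2 were higher in head, Lhx2 (4.81 ± 0.39, adjusted p = 1.17e-05) and Dlx2 (1.67 ± 0.17, adjusted p = 6.67e-05), and 2 were lower, Foxd1 (−1.27 ± 0.18, adjusted p = 0.000734) and Pax6 (−1.22 ± 0.35, adjusted p = 0.0452, all limma), whose call was lost in 8 of the fits that left out an array. Dlx2 was also picked for its likeness to En2 and Tlx1, so its call is no separate observation. Lhx2 lay below the median on every trunk array, so its value is not a measured fold. The list median was −0.16, and of all genes 6.85% were called higher in head and 3.61% lower. Mab21l2 differed by −0.16 (adjusted p = 0.788). None of the 5 passed the head test from E9.5 to E11.5 (limma). Lhx2 is also expressed in pharyngeal mesoderm, so it does not mark the forebrain alone.

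Among the relatives of the 4 genes on the array, Tlx3, a paralogue of Tlx1, was above the median on all 6 head arrays and 0 trunk arrays. It was higher in head by 1.30 ± 0.23 (limma, adjusted p = 0.00302), with group means of 6.96, 7.42 and 7.27 in head, and unlike Tlx1 its value at E11.5 in head was not below that at E9.5 (0.32, adjusted p = 0.754, limma). Tlx2 differed by 0.38 (limma, adjusted p = 0.289). Crx, an Otx relative, and Gbx2 and Barhl1 were not tested, each being above the median on at most 1 array.

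Part of the corepressors and cofactors that engrailed and Tlx proteins work with lay above the array median in both regions. In each group 5 to 7 of the 14 on the array lay below it on both arrays, with Tle5, Pbx4 and Pknox2 there in all 6 groups. Of 14 Groucho (Tle), Pbx and Meis family genes on the array, 9 were tested, and Tle1, Tle3, Tle4, Pbx2, Pbx3, Meis1 and Meis2 were above the median on all 12 arrays. Meis1 was lower in head (−1.67 ± 0.21, limma, adjusted p = 0.00033), where 3.61% of all genes were called lower. The other 8 did not pass the head against trunk test (list median −0.07). None of the 9 passed the head test from E9.5 to E11.5 (list median −0.04, all genes 0.00).

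The fall of Otx2 in head coincided with a fall of epithelial genes. Of 17 genes of pharyngeal endoderm and surface ectoderm, 9 fell in head from E9.5 to E11.5 and 0 rose (list median −1.69, all genes 0.00), where 2.03% of all genes were called lower. They included the keratins Krt8 (−3.54 ± 0.30, adjusted p = 5.77e-05) and Krt18 (−2.90 ± 0.38, adjusted p = 0.000972), Epcam (−2.20 ± 0.20, adjusted p = 0.000112) and the splicing regulator Esrp1 (−2.46 ± 0.41, adjusted p = 0.00522, all limma). Epcam was also picked for its likeness to Otx2, so its fall is no separate observation. The count was 4 without head E9.5 replicate 1 and 6 without either head E11.5 array. The summed signal of the 17 genes in head was 11010 to 11230 at E9.5, 6178 to 7937 at E10.5 and 3632 to 3817 at E11.5. In trunk it was 4116 to 4119, then 1968 to 2750, then 1642 to 2369. There 6 genes fell and 0 rose (list median −1.32), against 4.71% and 8.73% of all genes. Leaving out trunk E9.5 replicate 1 gave 3 such genes, and leaving out trunk E9.5 replicate 2 or trunk E11.5 replicate 2 gave 4. In head at E9.5, 0 of the 17 lay below the median on both arrays. Over the mean of the stages 12 were higher in head and 0 lower (list median 1.19), against 6.85% and 3.61% of all genes. The part of these cells in the signal of Otx2 and Tlx1 was not tested, and in bulk samples fewer cells of a type and less RNA per cell cannot be told apart.

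Markers of neural cells went in both directions in head, where from E9.5 to E11.5 2.75% of all genes were called higher and 2.03% lower. Of 7 tested genes of neural tube progenitors, Sox2 (−2.33 ± 0.25, adjusted p = 0.00038) and Hes5 (−3.37 ± 0.70, adjusted p = 0.0157) fell in head from E9.5 to E11.5, and Nes rose (1.12 ± 0.27, adjusted p = 0.0358, all limma; list median −0.76). Sox1, Sox3, Olig2 and Nkx6-1 lay below the median on both arrays of every group. The summed signal of the 11 genes on the array was 4687 to 4922 in head at E9.5 and 2799 to 3011 at E11.5, and 4671 to 5843 and 4776 to 5999 in trunk. The call of Hes5 was lost without head E9.5 replicate 1 or head E11.5 replicate 1, and that of Nes without any single head array of E9.5 or E11.5 and without either trunk E10.5 array.

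Of 15 tested genes of neurons and cranial ganglia, Neurod1 and Neurog1, which act in sensory neuron formation, fell in head (−1.98 ± 0.29, adjusted p = 0.00213, and −4.01 ± 0.77, adjusted p = 0.0105, both limma) and Stmn3 rose (2.34 ± 0.50, limma, adjusted p = 0.0187; list median 0.59). Of all genes 2.03% were called lower and 2.75% higher in this comparison. Neurod1 was also picked for its likeness to Tlx1, so its fall and its head against trunk call are no separate observations. Neurog1 lay below the median on both head arrays of E11.5, so its value is not a measured fold. The call of Neurog1 was lost without either head E9.5 array or without head E11.5 replicate 2 (adjusted p up to 0.0646), and that of Stmn3 in 6 of 22 settings, among them without head E9.5 replicate 1, without head E11.5 replicate 2 and without the suffixed probe sets (adjusted p = 0.27). The summed signal of 17 such genes was 6981 to 12510 in head at E9.5 and 11990 to 20150 at E11.5, against 1378 to 1966 and 8213 to 10990 in trunk. Over the mean of the stages 12 were higher in head and 1 lower (list median 1.28), against 6.85% and 3.61% of all genes. Their part in the head signal of the homeobox genes was not tested.

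Of 10 tested neural crest genes Prrx1 rose (1.09, adjusted p = 0.0416) and Prrx2 fell (−1.37, adjusted p = 0.0232, both limma; list median −0.39), calls that were both lost without either head E9.5 array and without head E11.5 replicate 1, among others. The 7 tested endothelial genes were all higher in head than in trunk (list median 1.49), against 6.85% of all genes. Of them 0 passed the head test from E9.5 to E11.5 (list median −0.27). In that head test 2.75% of all genes were called higher and 2.03% lower. Of 3 tested placode and eye genes Pitx3 rose (2.87, limma, adjusted p = 0.009, and 0.0555 without head E11.5 replicate 1), while Foxe3, Cryaa and Dct were below the median on every array.

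**Figure D4:**
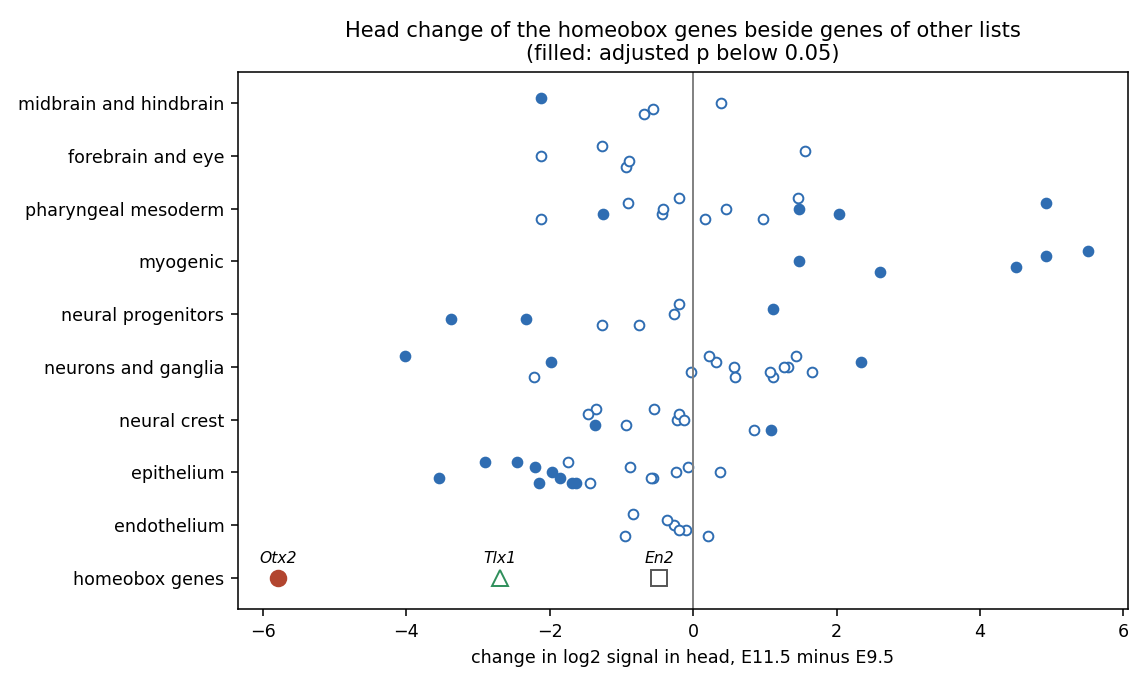
Change in log2 signal in head from E9.5 to E11.5 (horizontal axis) of the tested genes of 9 lists and of En2, Otx2 and Tlx1 (bottom row). Filled points have an adjusted p below 0.05 (limma). Otx2 at −5.78 lies to the left of every list gene, the epithelial genes run from −3.54 to 0.37, and the 5 myogenic genes all rose.

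The muscle genes of the same bulk samples went the other way. All 5 tested myogenic genes rose in head from E9.5 to E11.5 (list median 4.50; 4 without head E9.5 replicate 1 or either head E11.5 array), among them Myog (5.50 ± 0.36, adjusted p = 8.7e-06), Myod1 (4.92 ± 0.30, adjusted p = 6.91e-06) and Myf5 (1.48 ± 0.21, adjusted p = 0.00165, all limma). Their summed signal with Myf6 and Des was 702.1 to 1088 at E9.5 and 6283 to 6411 at E11.5. Of all genes 2.75% were called higher in this head comparison. In trunk 3 of the 5 rose (list median 2.55), against 8.73% of all genes, and the sum went from 1413 to 1980 up to 3857 to 3896. Otx2 and Tlx1 were highest in the head arrays in which the muscle genes were lowest.

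Regulators of pharyngeal mesoderm were mostly higher in head than in trunk and went in both directions between the stages in head. Of 13 tested genes, 9 were higher in head and 1 lower (list median 1.91), against 6.85% and 3.61% of all genes. From E9.5 to E11.5 in head Msc (2.04 ± 0.31, adjusted p = 0.00277), Myod1 and Myf5 rose and Ebf2 fell (−1.25 ± 0.22, adjusted p = 0.00735, both limma). The median of this list was 0.16, and of all genes 2.75% were called higher and 2.03% lower. Tbx1 changed by −0.43 (adjusted p = 0.398), Isl1 by −0.20 (adjusted p = 0.806) and Tcf21 by −0.42 (adjusted p = 0.815, all limma). Lhx2 ran from a mean of 8.85 at E9.5 to 6.73 at E11.5, a change of −2.12 that did not pass (limma, adjusted p = 0.109). Ebf2 was not called without head E9.5 replicate 1 or without head E11.5 replicate 1.

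Of 14 dermomyotome genes, which are expressed beside En1 in somites, 2 or 3 lay below the median on both arrays in each trunk group, among them Alx4 in all 3, and 5 to 7 in each head group. Of 13 tested genes, 7 were lower in head and 0 higher (list median −1.46, against 3.61% and 6.85% of all genes), among them Sim1 (−3.52 ± 0.22, adjusted p = 9.8e-07), Meox2 (−2.08 ± 0.13, adjusted p = 9.08e-07), Meox1 (−2.97 ± 0.19, adjusted p = 1.29e-06) and Tcf15 (−3.29 ± 0.24, adjusted p = 3.81e-06, all limma). In trunk from E9.5 to E11.5 Meox1 (−1.96 ± 0.33, adjusted p = 0.00224) and Wnt6 (−1.10 ± 0.30, adjusted p = 0.0292, both limma) fell and 0 rose (list median −0.58). Of all genes 4.71% were called lower there and 8.73% higher. Wnt6 was not called without any single trunk array of E9.5 or E11.5. In head 4 rose, Meox2, Lbx1, Dmrt2 and Meox1 (list median 0.60, with 2.75% of all genes higher). Dmrt2 lay below the median on every head array and was not called when such signals were raised to it (adjusted p = 0.999), and Meox1 lost its call without head E9.5 replicate 2, either head E11.5 array or either trunk E10.5 array. Lbx1, a gene of migrating muscle precursors, rose by 4.67 ± 0.62 (limma, adjusted p = 0.00133). It lay below the median on both head arrays of E9.5, so this is not a measured fold.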

How the data were processed

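The deposited values are Affymetrix probe set signals, an intensity on a linear scale, made by the authors with MAS5 and Affymetrix Expression Console per the submitters' processing notes (no version given); per the labels' protocols, QIAzol-extracted RNA went through MessageAmp amplification first. The platform annotation gave 1 gene for 20380 of 22690 probe sets, several for 691 and none for 1555, with 64 controls left out. Log2 was taken with no further normalization. Probe sets with at least 2 of 12 arrays above the array median were kept (11738), and the one with the highest mean stood for its gene, which left 7721 genes. Gene symbols matched the GRCm38.p6 table by Entrez identifier for 20351 probe sets.

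Changes were tested with limma 3.58.1 in R 4.3.3, with 1 mean per group for 6 groups, an intensity trend and two-sided tests. P-values were adjusted by Benjamini-Hochberg over all 7721 genes in each of 6 comparisons, at a threshold of 0.05. On simulated arrays the head E9.5 to E11.5 test recovered 51.8% of 2-fold and 92% of 4-fold changes. Of its calls there 6.74% were false. There were 6 residual and 5.87 prior degrees of freedom. The number of arrays limits the precision. The head against trunk mean was not tested for the 4 homeobox genes. Their difference between the regions in the stage change was tested. For En2, Otx2 and Tlx1 it is made from values used in the choice. The genes and the lists were chosen with earlier results of these data known. Genes are named by rule: the 4 genes, the 5 of highest correlation with each tested one, and of each list up to 4 of smallest p, or all where at most 6 were tested; others were named after their values were seen. Same-numbered arrays of different groups did not deviate together (correlations of −0.299 to 0.173, over 0.1 in 2 of 15 pairs of groups). The numbers were therefore not used as pairs in the main fit. These correlations cannot show whether head and trunk arrays came from the same embryos, and both E10.5 replicate 1 arrays were low in Xist.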

Additional observations from a re-analysis of the deposited data

How the results depend on the processing

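No call of En2, Otx2 or Tlx1 reversed under any alternative run, and En1 was tested only in the run with no filter. The alternatives were no filter, a filter of at least 4 arrays, signals below the median raised to it, log2(signal + 32), no intensity trend, quantile normalization, the mean of a gene's probe sets, leaving out probe sets suffixed _s, _x or _a, a replicate block, leaving out both E10.5 replicate 1 arrays and leaving out each array. List counts under them were added after seeing the data. The cause of the shifts below was not tested. Values near or below the array median limit every statement on Otx2, Tlx1 and En1. The log2 values of list genes with either side below the median are likewise not measured folds.

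The E9.5 to E11.5 change of Otx2 in head lost its call without both E10.5 replicate 1 arrays (−5.78, adjusted p = 0.0536) and ranged from −6.75 to −4.81 without single arrays. From E9.5 to E10.5 it passed with signals raised to the median (−1.82, adjusted p = 0.00116) and with log2(signal + 32) (−2.00, adjusted p = 0.0118). From E10.5 to E11.5 it passed without a trend (−3.37, adjusted p = 0.0376). Its difference between the regions passed with no filter (−5.72, adjusted p = 0.0183), raised signals (−1.83, adjusted p = 0.00424), log2(signal + 32) (−3.38, adjusted p = 0.00297) and no trend (−5.72, adjusted p = 0.0158). These passes give no support, since Otx2 was chosen on head minus trunk values. Otx2 gave no value with the stricter filter or without the suffixed probe sets, and Tlx1 none with the stricter filter.

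The E9.5 to E11.5 change of Tlx1 in head passed with raised signals (−1.74, adjusted p = 0.0053), log2(signal + 32) (−2.17, adjusted p = 0.00343) and no trend (−2.69, adjusted p = 0.0494), and ranged from −3.25 to −2.13 without single arrays. From E9.5 to E10.5 it passed with raised signals (−1.67, adjusted p = 0.0161) and log2(signal + 32) (−1.61, adjusted p = 0.048). Its difference between the regions passed with log2(signal + 32) (−2.32, adjusted p = 0.0435) and ranged from −4.54 to −2.42 without single arrays. Tlx1 too was chosen on head minus trunk values, so this pass gives no support.

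The head minus trunk means of En2, Otx2 and Tlx1 became 0.93, 0.61 and 0.61 with raised signals and 2.25, 1.74 and 1.83 with log2(signal + 32). With the floor at the 25th percentile in place of the median, head over trunk for En2 became at least 9.13-, 8.23- and 6.61-fold at the 3 stages, and at E9.5 at least 14.7-fold for Otx2 and 13.9-fold for Tlx1. Head at E9.5 over E10.5 and E11.5 became 5.33 and at least 14.8 for Otx2, and 3.70 and 6.46 for Tlx1.

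The count of genes called between head and trunk was 447 without both E10.5 replicate 1 arrays and 534 to 909 without single arrays. From E9.5 to E10.5 in head it was 49 with no filter, 127 with raised signals, 119 with log2(signal + 32), 34 without a trend, 47 with probe set means and 2 to 136 without single arrays. Without both E10.5 replicate 1 arrays it was 0 (limma). All 12 arrays gave 1208 genes at an unadjusted p under 0.05 there. From E10.5 to E11.5 it was 50 with no filter, 133 with raised signals, 4 without both E10.5 replicate 1 arrays and 4 to 165 without single arrays. From E9.5 to E11.5 it was 172 to 393 in head, 432 to 1082 in trunk and, for the difference between them, 57 to 120 without single arrays and 63 without both E10.5 replicate 1 arrays.

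With the replicate number as a block, 49 genes in place of 76 were called from E10.5 to E11.5 in head. The block changed no call of En2, Otx2 or Tlx1 (Otx2 from E9.5 to E11.5 in head: adjusted p = 0.0305).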
